A study of Mus musculus with 4 samples.

Results

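The cells described here are neutrophils that had entered inflamed ear skin of mice with antibody-induced epidermolysis bullosa acquisita (EBA), a blistering disease in which antibodies bind collagen VII below the epidermis. They were taken from 1 droplet library of dissociated ear skin. A barcode was counted when it had 200 or more detected genes, no more than 10% mitochondrial UMIs (unique molecular identifiers, which count captured transcripts), 1% or more of its UMIs from S100a8 and S100a9, at least 1 Csf3r UMI, no Ccr2 UMI and under 1% of its UMIs from Krt5 and Krt14. This rule found 690 of the 4281 barcodes that passed the gene and mitochondrial limits in this library (16.1%, exact Clopper-Pearson 95% interval 15.0% to 17.3%), among 23191 barcodes in the 4 libraries of the series.

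All mice were C57BL/6J, 6 to 8 weeks old, and none carried a genetic change. EBA mice had received 250 µg of rabbit IgG against the vWFA2 domain of collagen VII (vWFA2-COL7 IgG) and control mice 250 µg of control rabbit IgG, each 3 times per week over 2 weeks. Cells of 3 mice were pooled into 1 library for each of EBA skin, IgG skin, EBA blood and IgG blood, so no group had a replicate. Blood had its red cells lysed and skin was digested with enzymes, so tissue and digestion cannot be told apart. Blood neutrophils were found with the same rule at a minimum of 2% S100a8 and S100a9 and without the keratin limit, which gave 431 barcodes in IgG blood and 780 in EBA blood. IgG skin held 1 barcode that met the skin rule, so skin neutrophils of control mice could not be compared.

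Neutrophils leave the bone marrow with granules already filled and circulate briefly. In tissue they adhere, migrate towards chemokines and lipid mediators, take up opsonised material through Fc and complement receptors, and release enzymes and oxidants. In EBA, IgG bound at the dermal-epidermal junction is engaged by Fc receptors of such cells. Circulating cells carry CXCR2, a chemokine receptor that takes part in leaving the vessel, and activated cells make chemokines that draw in further leukocytes.

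Neutrophil markers that the rule did not use were higher in these barcodes than around them. Among barcodes of the same library, the skin neutrophils held 1781 CPM (UMIs scaled to 1e6 in the summed counts) of Hdc and the other barcodes 35.4, 749 CPM of Il1r2 against 84.6, and 322 CPM of Cxcr2 against 12.1. The monocyte and macrophage markers were mixed: 8 of the 11 with UMIs, such as C1qa (7.83 CPM against 118.9) and Mrc1 (10.4 against 75.1), stood below the other barcodes, whereas Ly6c2 stood above them (102 against 6.05) and Csf1r (52.5 against 46.0) and Adgre1 (22.6 against 21.4) were near them. The 12 markers of that list summed to 291 CPM in the neutrophils and 868 in the rest of the library, and 366 of the 690 barcodes held none of their UMIs. The 1 marker at 0 was Ccr2, which the rule requires to be absent. Of 4 B cell markers 3 were at 0, although they summed to only 2.04 CPM in the rest of the library. Eosinophil markers went the other way, at 4.64 CPM in the neutrophils and 0.897 in the rest. Of those 5 markers 3 were at 0, Siglecf stood at 2.32 CPM against 0.0967 and Ccr3 at 2.32 against 0.635. No eosinophil marker UMI was found in 674 of the 690 barcodes. RNA of other skin cells was present at a lower level than around them, with keratinocyte markers at 3882 CPM against 26961, fibroblast markers at 5139 against 19568 and erythroid markers at 5006 against 14081, and all markers of these 3 lists had UMIs. Krt5 and Krt14, which the rule limits, belong to the keratinocyte list. In 40 of the 690 barcodes at least 1% of the UMIs came from one of these 3 lists. These mixed barcodes were picked out after the values were seen; they had a median of 10023.5 UMIs against 3293 for the rest and held 18.4% of all UMIs. Counts below are also given without them where that changes them by over 1.5 times.

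Depth and the rule's edges were as follows. The 4 libraries held 22705634 to 90829463 UMIs. The skin neutrophils had a median of 3352 UMIs (504 to 58361) and 975 genes per barcode and summed to 3449150 UMIs, against 1318635 for IgG blood and 9158656 for EBA blood neutrophils, whose medians were 2538 and 9803.5 UMIs. Csf3r set many of the edges: 246 barcodes met every other condition but had no Csf3r UMI, at a median of 2748.5 UMIs, and 191 members had exactly 1. The S100a8 and S100a9 shares closest to the limit were 1.02% inside and 0.619% outside, and 24 members lay between 1% and 2%. The values of the rule's genes are a description of the choice; S100a8 stood at 57894 CPM in skin and 50169 in IgG blood, S100a9 at 71502 and 51028, and Csf3r at 710 and 3309. Any 2 libraries shared 8 to 15 barcode sequences, and 3 skin neutrophils and 1 IgG blood neutrophil carried such a barcode.

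The main comparison set the skin neutrophils against neutrophils in the blood of control mice. A gene was measured when both sums together held at least 10 of its UMIs and the higher one at least 10 CPM. Ratios of CPM were divided by the median ratio of all 7175 measured genes, which was −0.52 on the log2 scale, and carry an exact conditional 95% interval. A gene was called higher or lower at a relative ratio of 2 or more, or 0.5 or less, with an interval that excluded 1. The intervals cover counting error only, and with 1 library in each group there is no test between conditions. On this scale 1985 genes were higher (27.7% of those measured) and 1704 lower (23.7%), so that 53.8% of the called genes were higher. By CPM without that division 1418 were higher and 2622 lower, a share of 35.1%. Values for EBA blood neutrophils are set beside these; the comparisons share the skin library. Against EBA blood, 28.6% of 6249 measured genes were higher and 26.4% lower, with a median log2 ratio of 0.64. The counts of gene lists below are read beside these shares of all genes, each for its own comparison.

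A few transcripts took a large part of the RNA of the skin cells. Fth1, the heavy chain of the iron store ferritin, was the most abundant at 73183 CPM, against 6683 in IgG blood and 5211 in EBA blood. It was 15.7-fold higher than in IgG blood (15.4 to 16). Cxcl2, a chemokine that attracts neutrophils through CXCR2, followed the rule's 2 S100 genes at 25664 CPM and stood at 28.8 in IgG blood and 24.3 in EBA blood. Srgn, the proteoglycan core of granules, stood at 8267, 2972 and 1592 CPM in that order. On the other side the actin-binding Tmsb4x held 8165 CPM in skin, 39068 in IgG blood and 32215 in EBA blood.

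**Figure D1:**
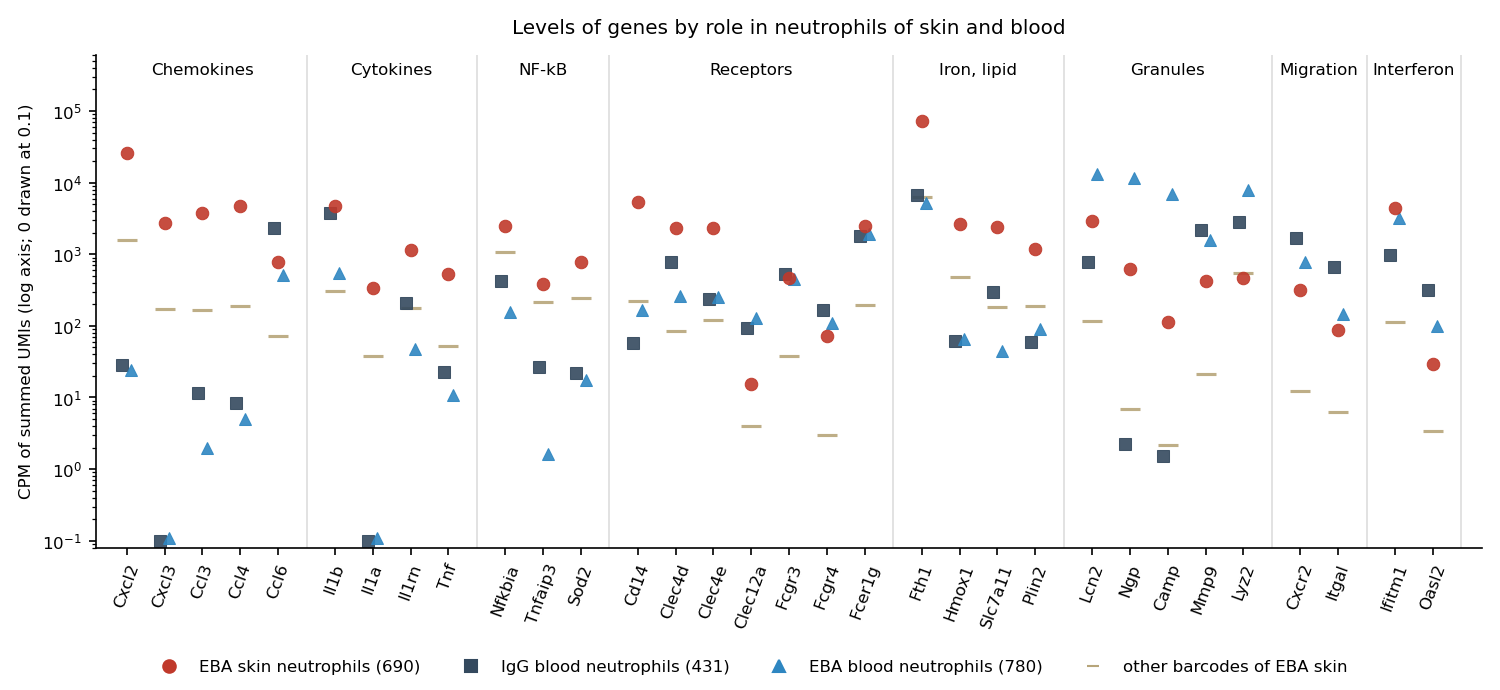
CPM of summed UMIs (log axis, 0 drawn at 0.1) for 32 genes grouped by role in EBA skin (circles), IgG blood (squares) and EBA blood neutrophils (triangles), with the level in the other barcodes of EBA skin as a bar. Each symbol is 1 pooled library; Cxcl2, Cxcl3, Ccl3 and Ccl4 lie far above both blood levels, Ngp and Camp lie between them, and Cxcr2 and Itgal lie below both.

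By the interval bound nearest to 1, 4 of the 5 genes that led the upward ranking were chemokines. Of 14 measured, 11 were higher and 3 lower, with a relative median log2 ratio of 4.74 (5 of the 14 at the bound for 0 UMIs in blood), beside 27.7% and 23.7% of all genes. Against the 66 IgG blood barcodes without platelet UMIs, where the floor of 3 counts stands over fewer UMIs, 10 of 13 were higher and the median was 2.17. Cxcl2 was 1276-fold higher than in IgG blood (929 to 1803) and 674-fold higher than in EBA blood. Cxcl3, a related gene on chromosome 5 whose product binds the same receptor, had 9516 UMIs in skin and none in IgG blood, at least 1737-fold higher against a floor of 3 counts over the blood sum. The leukocyte attractants Ccl3 (3712 CPM in skin, 11.4 in IgG blood, 1.97 in EBA blood) and Ccl4 (4699, 8.34 and 5.02) were 467-fold (283 to 835) and 807-fold (451 to 1617) higher. For these 4 genes and Ccl9 (108 CPM, 8.47-fold) the skin neutrophils also stood above the other barcodes of their library.

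The remaining 6 higher chemokines stood below the level of the surrounding skin barcodes. Cxcl1 held 124 CPM in the neutrophils and 484 in the rest of the library, Ccl2 120 and 354, Ccl7 55.7 and 201, Cxcl10 42.9 and 115, Cxcl5 38.0 and 170 and Cxcl16 23.8 and 125. Without the mixed barcodes Cxcl5 (2.13 CPM, relative ratio 0.593) and Ccl7 (7.46 CPM) lay under the 10 CPM limit and were not compared. After subtraction of free RNA, estimated at 19.4% of the skin UMIs, 9 of 11 measured chemokines were higher and 1 lower. That estimate used keratinocyte and fibroblast markers summed over all skin neutrophils, so it also counts the RNA of mixed barcodes. It is not a figure for the typical barcode, as 355 of the 690 held no fibroblast marker UMI. The free RNA part of each single gene was not tested. The 3 lower chemokines were Ccl6, at 789 CPM in skin and 2301 in IgG blood, Ccl5 at 7.25 and 78.9, and the platelet chemokine gene Ppbp at 0.290 and 500.5 (1 UMI in skin). Ccl6 was 2.04-fold lower and had a relative ratio of 0.763 without the mixed barcodes, which is not a call.

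Promoters of 3 of these inflammatory genes are printed. Each gene was higher in skin than in either blood sum and has long been known as an NF-kB target. Each promoter is the stretch of 250 bases before the RefSeq start site (GRCm38.p6), 5′ to 3′ on the gene's strand, with the kappa B consensus in capitals. Cxcl2 lies at chr5:90903649-90903898 (plus strand), Cxcl3 at chr5:90785851-90786100 (plus strand) and Nfkbia at chr12:55492648-55492897 (minus strand), and the match begins 97, 73 and 29 bases before the start.
Cxcl2: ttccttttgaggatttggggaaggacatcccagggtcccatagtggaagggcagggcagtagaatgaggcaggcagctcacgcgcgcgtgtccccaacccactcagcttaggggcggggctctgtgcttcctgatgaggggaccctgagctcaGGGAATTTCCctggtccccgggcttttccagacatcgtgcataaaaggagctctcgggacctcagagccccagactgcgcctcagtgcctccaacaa
Cxcl3: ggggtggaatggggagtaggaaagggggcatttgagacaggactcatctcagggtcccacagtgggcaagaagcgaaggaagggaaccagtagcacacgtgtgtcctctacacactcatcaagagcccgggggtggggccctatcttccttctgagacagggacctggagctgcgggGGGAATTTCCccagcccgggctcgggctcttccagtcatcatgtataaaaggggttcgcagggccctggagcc
Nfkbia: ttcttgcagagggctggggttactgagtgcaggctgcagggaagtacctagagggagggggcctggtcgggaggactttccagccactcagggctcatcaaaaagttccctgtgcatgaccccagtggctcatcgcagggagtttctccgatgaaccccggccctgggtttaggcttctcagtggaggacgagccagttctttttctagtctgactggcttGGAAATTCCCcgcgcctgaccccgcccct

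The kappa B consensus was searched on both strands of that window in 32851 RefSeq promoters, and 5.0% held it. Among the genes measured here with a promoter in the table, 433 of 5646 (7.67%) held it. It was present in 5 of the 8 measured chemokines with a promoter, 7 of 16 genes of the NF-kB list and 3 of 11 cytokines and antagonists. The printed promoters are among those with a match, whereas the promoters of Ccl3, Il1a, Tnf and Acod1, also higher in skin, held none. The NF-kB list includes genes already known as targets, so its count is no independent support. A match describes letters in this window and no binding was measured.

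The NF-kB list, with subunits, inhibitors and long-known target genes, was higher as a group: 17 of 19 measured members were higher and none lower (relative median 2.66). All 17 also stood above the other barcodes of the skin library. Nfkbia, the inhibitor that NF-kB itself induces, stood at 2480 CPM in skin, 422 in IgG blood and 155.5 in EBA blood, 8.41-fold higher than in IgG blood (7.72 to 9.18). Tnfaip3, a deubiquitinase that ends the signal, stood at 378, 26.5 and 1.64 CPM (20.4-fold, 14.6 to 29.4). The signalling adaptor Traf1 was 60.8-fold higher (33.9 to 122), the mitochondrial superoxide dismutase Sod2 50.5-fold (35.1 to 75.6) and the adhesion ligand Icam1 26.9-fold (17.1 to 44.9). Of the subunits, Nfkb1 (6.33-fold), Nfkb2 (7.24-fold), Rel (3.80-fold) and Relb (4.86-fold) were higher, and Rela at 1.93-fold and Tnfaip2 at 534 CPM against 996 were the 2 measured members without a call. Ier3, a stress response gene, and Plaur, the urokinase receptor, were among the most abundant members at 1092 and 813 CPM and were 6.72-fold (5.98 to 7.57) and 6.24-fold (5.48 to 7.14) higher.

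Of 16 measured cytokines and antagonists, 10 were higher and 1 lower (relative median 2.43, with 4 at the bound for 0 UMIs in blood). Against the platelet-free blood barcodes 8 were higher and the median was 1.01. Il1b, the secreted pyrogen, was high in skin and in control blood alike: 4673 CPM in skin, 3772 in IgG blood and 541 in EBA blood. Its relative ratio to IgG blood was 1.77 (1.72 to 1.83), short of the limit, and 2.74 without the mixed barcodes, which is a call. It was 5.53-fold higher than in EBA blood. Il1a, the related alarmin, had 1163 UMIs in skin, none in IgG blood and 1 in EBA blood, at least 212-fold higher than in IgG blood. The receptor antagonist Il1rn (1132, 211 and 47.9 CPM) was 7.69-fold higher than in IgG blood (6.81 to 8.72), and the decoy receptor Il1r2 3.76-fold (3.38 to 4.21).

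Tnf stood at 533 CPM in skin, 22.8 in IgG blood and 10.8 in EBA blood, 33.6-fold higher than in IgG blood (23.4 to 49.9). Csf3, the gene of the granulocyte growth factor G-CSF, had 409 UMIs in skin and none in either blood sum, at least 74.7-fold higher than in IgG blood. Osm (108 and 47.0 CPM) was 3.28-fold higher. Il15 was the lower member, at 36.8 and 119 CPM (2.26-fold lower, 1.78 to 2.88), and was not called without the mixed barcodes. Il6, at 30.7 CPM, stood below the 106 CPM of the other skin barcodes.

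The receptors that bind IgG and complement stood near the median ratio of all genes against IgG blood and below that median against EBA blood. Of 10 measured, 1 was higher, 2 were lower and 7 were neither, with a relative median of 0.04 that became −0.48 without the division by the median of all genes. Without the mixed barcodes 3 were higher and 1 lower. Against EBA blood none of 11 was higher and 6 were lower (relative median −1.13). That direction depends on the division: by CPM the 13 genes of the list summed to 4243 in skin, 4147 in IgG blood and 3654 in EBA blood. Fcgr3, an activating receptor for immune complexes, stood at 462 CPM in skin, 529 in IgG blood and 456 in EBA blood (relative ratio 1.25, 1.14 to 1.37). The other activating receptor Fcgr4 stood at 71.9, 166 and 109 CPM, and the inhibitory Fcgr2b at 16.8, 15.9 and 15.4. Their shared signalling chain Fcer1g was far more abundant, at 2444, 1783 and 1931 CPM (relative ratio 1.96, 1.88 to 2.06; 3.04 and a call without the mixed barcodes).

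C5ar1, the receptor for the chemoattractant C5a, was the higher member at 514, 322 and 237 CPM (2.29-fold over IgG blood, 2.06 to 2.55). The second C5a receptor C5ar2 was 5.70-fold lower (4.22 to 7.80) at 16.8, 137 and 24.9 CPM, and Cr1l, a regulator of complement, 2.65-fold lower (2.11 to 3.35). The complement receptor subunits Itgam (346 and 390 CPM in skin and IgG blood) and Itgb2 (313 and 639) and the decay factor gene Cd55 (10.7 and 18.2) were not called. Fcgr1, C3ar1 and Cd59a were not measured.

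Signalling genes downstream of Fc and lectin receptors showed more lower than higher members, 9 against 1 of 21 measured, with a relative median of −0.47. Of all genes 23.7% were lower and 27.7% higher. Without the mixed barcodes the counts were 5 lower and 4 higher and the median was 0.15. Mapk14, a stress kinase, was 8.61-fold lower (6.74 to 11.1) at 23.2 CPM in skin, 286 in IgG blood and 103 in EBA blood. The lipid kinase subunit Pik3cd was 11.4-fold lower (8.32 to 15.9), the phospholipase Plcg2 5.31-fold (3.89 to 7.35) and the adaptor Card9 13.7-fold (5.82 to 39.3, from 6 UMIs in skin). The phosphatase Ptpn6, which dampens receptor signals, was 3.04-fold lower (2.70 to 3.42) and the kinase Fgr 2.11-fold (1.89 to 2.36), neither of them called without the mixed barcodes. The kinase Lyn stood at 219 CPM in skin and 433 in IgG blood without a call. Malt1, the protease of the complex that Card9 feeds, was 4.12-fold higher (3.09 to 5.60). The kinase Syk, which starts both pathways, stood at 345, 377 and 145 CPM with a relative ratio of 1.31 (1.18 to 1.46).

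C-type lectin receptors separated by member. Of 20 on the list 14 were measured, with 6 higher, 4 lower and 4 neither, and the relative median of 0.39 turned to −0.13 without the division by the median of all genes and to −0.10 without blood barcodes that held platelet UMIs. Clec4d and Clec4e, activating receptors for microbial lipids and damage products that pair with Fcer1g, stood at 2307 and 2350 CPM in skin. Clec4d stood at 785 CPM in IgG blood and 265 in EBA blood, so it was 4.21-fold higher than in IgG blood (3.95 to 4.50). Clec4e stood at 238 and 257 CPM in those 2 sums and was 14.1-fold higher than in IgG blood (12.6 to 15.9). Clec4d was thus the more abundant of the pair in IgG blood, where Clec4e was not.

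Clec4n, which also pairs with Fcer1g, was 2.73-fold higher (1.99 to 3.80) at 69.3 CPM, and Clec5a, which signals through DAP12, 2.63-fold (2.09 to 3.35) at 123. Olr1, a receptor for oxidised lipoprotein, was 52.0-fold higher (20.2 to 192, from 4 UMIs in IgG blood). Mrc1 had 36 UMIs in skin and none in IgG blood, and its 10.4 CPM stood below the 75.1 CPM of the other skin barcodes; against the platelet-free blood barcodes its bound was under 1. The inhibitory Clec12a was 4.27-fold lower (3.07 to 6.01) at 15.4, 94.0 and 128 CPM, and Clec4a1 and Clec4a3 were 5.80-fold and 14.1-fold lower; these 2 and Clec4a2 are close paralogs, so their counts are uncertain. The platelet receptor gene Clec1b had 3 UMIs in skin, a ratio 342-fold lower (116 to 1664), and was not called without the platelet-bearing blood barcodes. Clec4a2, Clec2d, Clec1a and Ly75 were not called, and Clec9a, Clec10a, Mgl2, Cd209a, Cd207 and Klrb1b were not measured.

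Other innate receptors were mostly higher, 10 of 17 with 1 lower (relative median 1.16). Cd14, the co-receptor for lipopolysaccharide, stood at 5362 CPM in skin, 58.4 in IgG blood and 165 in EBA blood, 132-fold higher than in IgG blood (105 to 167). Fpr1 and Fpr2, receptors for formylated peptides, were 10.9-fold (9.10 to 13.2) and 3.70-fold (3.19 to 4.30) higher. Trem1, an amplifier of inflammatory signals, was 5.11-fold higher (4.45 to 5.88), the inflammasome sensor Nlrp3 3.43-fold (3.06 to 3.86) and Tlr2 6.61-fold (5.25 to 8.41). The adaptor Myd88 was the lower member at 53.9 against 202 CPM (2.61-fold, 2.16 to 3.17), and was not called without the mixed barcodes.

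**Figure D2:**
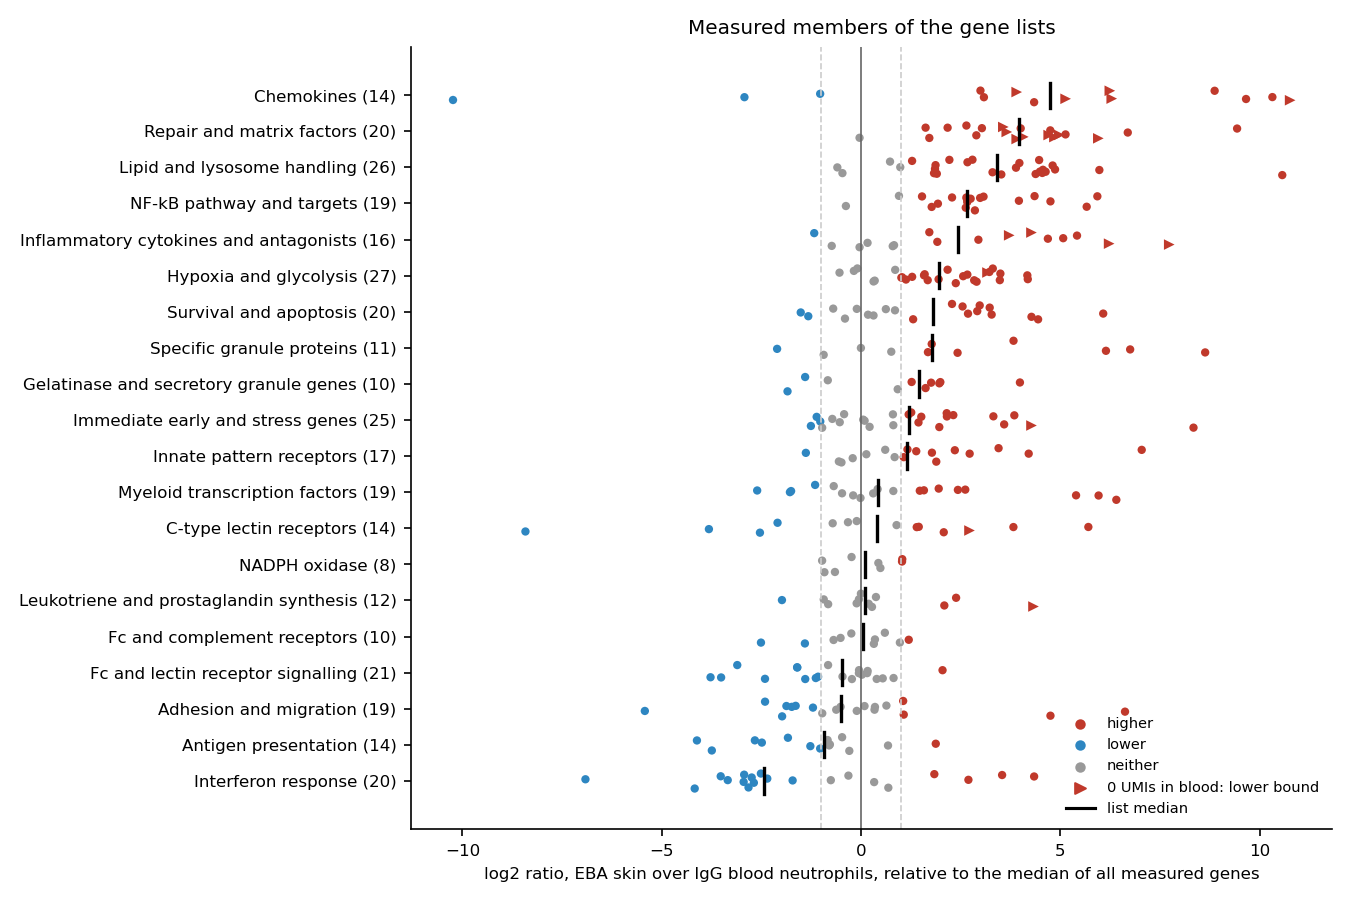
Log2 ratio of EBA skin over IgG blood neutrophils, relative to the median of all measured genes, for the measured members of the 20 gene lists with 8 or more; numbers of members stand in parentheses. Triangles are lower bounds for genes with 0 UMIs in blood, black bars are list medians and dashed lines mark the 2-fold limit; chemokines have the highest median (4.74, but 2.17 against platelet-free blood barcodes, below the 3.23 of lipid and lysosome genes there) and interferon response genes the lowest in both (−2.43 and −1.89).

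Genes for lipid mediators were split. Of 12 measured, 3 were higher and 1 lower (relative median 0.09, −0.42 without the division by the median of all genes), beside 27.7% and 23.7% of all genes. Alox5, the enzyme that begins leukotriene synthesis, was 3.96-fold lower (3.04 to 5.19) at 24.4 CPM in skin, 138 in IgG blood and 110 in EBA blood. Its activating partner Alox5ap stood at 1245, 1475 and 2635 CPM, Lta4h, which completes leukotriene B4, at 12.8, 19.0 and 59.8, and the leukotriene B4 receptor gene Ltb4r1 at 59.1, 84.9 and 282, none of them called against IgG blood. Each of these 4 was lower in skin than in EBA blood, by 7.06-fold, 3.31-fold, 7.33-fold and 7.44-fold.

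Ptgs2, the inducible cyclooxygenase, stood at 453 CPM in skin, 124 in IgG blood and 1.31 in EBA blood (5.22-fold over IgG blood, 4.44 to 6.17), beside 343 CPM in the other skin barcodes. Ptafr, the receptor for platelet-activating factor, was 4.25-fold higher (3.80 to 4.77), and Ptges, with 109 UMIs in skin and none in IgG blood, stood below the surrounding skin (31.6 against 194 CPM). Pla2g7 (333 CPM in skin, 846 in IgG blood), Pla2g4a (6.09 and 16.7), Ptgs1 (27.0 and 41.7), Ptges3 (63.8 and 70.5) and Ptger2 (28.4 and 35.6) were not called; without the mixed barcodes Pla2g4a was called lower. Ltc4s, Alox15, Ptges2 and Ptger4 were not measured.

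NADPH oxidase genes, which make the oxidative burst, lay near the median of all genes against IgG blood and lower against EBA blood, where none of 8 was higher and 6 were lower (relative median −1.13). Of 8, 2 were higher than in IgG blood and none lower, beside 27.7% and 23.7% of all genes. The relative median of 0.10 became −0.42 without the division, and 4 were higher without the mixed barcodes. Ncf1 and Ncf4, cytosolic subunits, were 2.05-fold (1.84 to 2.27) and 2.04-fold (1.78 to 2.35) higher. The membrane subunit Cybb stood at 117 CPM in skin, 124 in IgG blood and 543 in EBA blood, so its 3 levels placed skin beside control blood. Against the blood barcodes without platelet UMIs neither Ncf1 nor Ncf4 was called. Among the most abundant members, Cyba (608 and 1372 CPM in skin and IgG blood) and Rac2 (414 and 1166), were not called.

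Most specific granule genes were higher than in IgG blood and lower than in EBA blood. Of 11 specific granule genes 7 were higher than in IgG blood and 1 lower (relative median 1.77), whereas against EBA blood none was higher and 10 were lower (−3.66). Their summed level was 5808 CPM in skin, 5916 in IgG blood and 49418 in EBA blood. Ngp, an antibacterial cathelicidin relative made in marrow precursors, had 2172 UMIs in skin, 3 in IgG blood and 105828 in EBA blood, which is 630, 2.28 and 11555 CPM. It was 396-fold higher than in IgG blood (135 to 1924) and 28.7-fold lower than in EBA blood. Camp (114, 1.52 and 6978 CPM, 2 UMIs in IgG blood) and Ltf (74.8, 1.52 and 2703 CPM, 2 UMIs), which encode cathelicidin and lactoferrin, had the same order, as did Lcn2, the iron-trapping lipocalin, at 2900, 776 and 13120 CPM. Lyz2, the lysozyme gene, had another order, at 462, 2848 and 7909 CPM, 4.30-fold below IgG blood (4.06 to 4.57). The haptoglobin gene Hp stood at 585 CPM in skin and 1605 in IgG blood without a call.

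Among gelatinase and secretory granule genes 6 of 10 were higher and 2 lower than in IgG blood (relative median 1.44), and against EBA blood 2 of 11 were higher and 6 lower. Without the mixed barcodes 8 of 11 were higher and 1 lower than in IgG blood. Mmp9, gelatinase B, was lower than in either blood, with 429 CPM in skin, 2206 in IgG blood and 1592 in EBA blood (3.59-fold below IgG blood, 3.37 to 3.83). Slpi, an inhibitor of neutrophil elastase, was higher than in either, at 7664, 3248 and 2097 CPM (3.38-fold over IgG blood, 3.27 to 3.49). Wfdc17, a small secreted protein of activated myeloid cells, stood at 6236, 564 and 4359 CPM (15.8-fold over IgG blood, 14.7 to 17.1). Of 6 azurophil granule genes only Serpinb1a was measured, without a call, and Mpo, Elane, Ctsg and Ms4a3 had no UMI in the skin neutrophils.

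Genes of adhesion and migration held 7 lower and 4 higher members of 19 (relative median −0.51), beside 23.7% lower and 27.7% higher of all genes. Without the mixed barcodes 6 were lower and 5 higher (median 0.14), and after subtraction of free RNA 6 and 6. Cxcr2 stood at 322 CPM in skin, 1688 in IgG blood and 785 in EBA blood (3.66-fold below IgG blood, 3.41 to 3.94), the integrin Itgal at 87.3, 664 and 145 (5.31-fold, 4.65 to 6.07) and Selplg, the selectin ligand, at 278, 1330 and 672 (3.34-fold, 3.08 to 3.61). The integrin Itga4 was 42.9-fold lower (27.5 to 70.9) at 5.80, 356 and 46.2 CPM. Each of these 4 was lower in skin than in EBA blood as well. Coro1a, an actin regulator, was 2.31-fold lower (2.18 to 2.45) but not called without the mixed barcodes, and Cd44, a receptor for hyaluronan, stood at 1388 CPM in skin and 1280 in IgG blood without a call. The higher members were Icam1, Ccr1 (2.10-fold), the actin regulator Vasp (2.08-fold) and Ccrl2, a chemerin-binding receptor, with 834 CPM in skin, 12.1 in IgG blood and 0.437 in EBA blood (98.4-fold, 60.5 to 172).

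Genes of iron, lipid and lysosome handling were higher in 22 of 26 cases, with none lower (relative median 3.41), and 16 of the 22 stood above the other skin barcodes. Hmox1, which degrades haem, stood at 2668 CPM in skin, 60.7 in IgG blood and 65.5 in EBA blood (63.0-fold, 50.6 to 79.5). The cystine carrier Slc7a11 (2402, 300.3 and 45 CPM) was 11.5-fold higher (10.4 to 12.7), and the autophagy receptor Sqstm1 20.8-fold (16.1 to 27.3). Genes of lipid droplets followed: Plin2 was 28.0-fold higher (22.4 to 35.4), and Hilpda had 2766 UMIs in skin and 1 in IgG blood, a ratio of 1515 (272 to 59849). The ferritin light chain gene Ftl1 stood at 9905, 5843 and 3387 CPM (2.43-fold, 2.37 to 2.49). Fabp5 stood at 1663 CPM in the skin cells but at 6936 in the rest of that library.

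Of 27 hypoxia and glycolysis genes 21 were higher and none lower (relative median 1.94). Hif1a, the oxygen-regulated transcription factor, stood at 430 CPM in skin, 54.6 in IgG blood and 64.3 in EBA blood (11.3-fold, 8.89 to 14.5). Ero1l was 18.1-fold (11.8 to 29.5), the prolyl hydroxylase P4ha1 18-fold (9.0 to 42.1) and Pfkfb3, an activator of glycolysis, 9.31-fold higher (6.59 to 13.6). The glycolytic enzymes Ldha (5.90-fold), Pgk1 (5.19-fold) and Gapdh (2.99-fold) were higher than in IgG blood but not called against EBA blood, where the ratios were 1.23, 1.10 and 0.528. Pkm (1024 and 728 CPM) and Aldoa (621 and 407) were just past the limit, at 2.01-fold and 2.18-fold.

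Of 20 genes for repair and matrix factors 19 were higher and none lower (relative median 3.95, with 8 of the 20 at the bound for 0 UMIs in blood), and 11 of the 19 stood above the other skin barcodes. Against the platelet-free blood barcodes 15 were higher and the median was 1.95. Spp1, the matrix protein and cytokine osteopontin, stood at 2560 CPM in skin, 5.31 in IgG blood and 2.40 in EBA blood (691-fold, 335 to 1718). Thbs1, thrombospondin, stood at 1709, 330 and 197 CPM (7.42-fold, 6.73 to 8.20), and F10, coagulation factor X, at 315, 12.9 and 14.3 (35-fold, 21.7 to 60.3). Basp1 and Marcksl1, membrane-associated relatives that bind calmodulin, were 16-fold (13.7 to 18.9) and 8.18-fold (7.15 to 9.39) higher at 1376 and 983 CPM. Hbegf, Areg, Ereg, Timp1, Adamts1, F3 and Fn1 stood at 18.8 to 109 CPM in the neutrophils and at 158 to 457 CPM in the rest of the skin library, and Areg (9.59 CPM) and Timp1 (6.04 CPM) lay under the 10 CPM limit without the mixed barcodes and were not compared.

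Survival genes were higher in 11 of 20 cases and lower in 2 (relative median 1.79). Genes that restrain cell death and genes that promote it were both among them. Bcl2a1b, a protective BCL2 relative induced by NF-kB, was 21.7-fold higher (15.5 to 31.5), Cflar 7.54-fold (6.27 to 9.13) and the survival kinase Pim1 7.87-fold (7.01 to 8.85). The pro-apoptotic Bcl2l11 stood at 656, 48.5 and 11.1 CPM (19.4-fold, 15.1 to 25.2), Fas, a death receptor, was 4.86-fold (4.02 to 5.92) and Bax 2.47-fold higher (1.88 to 3.29). The stress gene Gadd45b (5.84-fold, 5.26 to 6.49) and Hcar2, a receptor for hydroxybutyrate and niacin (9.68-fold, 8.28 to 11.4), were among the most abundant members at 1215 and 851 CPM. Mcl1, the main protein that keeps neutrophils alive, stood at 1571, 1994 and 974 CPM with a relative ratio of 1.13 (1.08 to 1.18). Without the mixed barcodes 13 of 20 were higher and none lower, so neither lower gene, Bid among them, kept its call.

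Interferon response genes went the other way, with 12 of 20 lower and 4 higher (relative median −2.43). Oasl2, an antiviral gene, was 7.63-fold lower (6.12 to 9.59), Irf7 5.71-fold (4.2 to 7.85) and Irf1 6.45-fold (5.35 to 7.82). Ifitm1 and Ifitm2, membrane proteins of the same response, were 6.47-fold (6.11 to 6.85) and 3.57-fold (3.40 to 3.77) higher; Ifitm1 stood at 4467, 990 and 3196 CPM. Cd274, the checkpoint ligand PD-L1, was 11.6-fold higher (9.24 to 14.8) at 473, 58.4 and 2.84 CPM. Cxcl10, the remaining higher member, stood below the surrounding skin, and Ifitm3 stood at 1003 CPM against 894 in IgG blood without a call.

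Antigen presentation genes held 7 lower and 1 higher of 14 (relative median −0.93), and 5 lower and 2 higher without the mixed barcodes. The proteasome subunits Psmb9 and Psmb8, which cut peptides for class I molecules, were 13.4-fold (9.12 to 20.3) and 5.61-fold (4.36 to 7.29) lower, and the transporter Tap1 6.34-fold (4.59 to 8.89). The most abundant members were class I genes without a call: H2-D1 stood at 1502 CPM in skin and 3847 in IgG blood, B2m at 678 and 1692 and H2-K1 at 447 and 890. Cd74 (111 and 566 CPM) and the class II genes H2-Ab1 (44.1 and 152) and H2-Eb1 (50.4 and 147) were 3.57-fold, 2.41-fold and 2.04-fold lower. H2-Ab1 and H2-Eb1 were not called without the mixed barcodes, and all 3 turned to the other direction when the barcodes with the highest doublet scores were left out. In IgG blood, markers of dendritic and Langerhans cells summed to 884 CPM in the neutrophils and 9128 in the other barcodes. The part of class II RNA from other cells was not tested.

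Immediate early and stress genes, which digestion of tissue can also raise, were higher in 13 of 25 cases and lower in 3 (relative median 1.19), and 11 of the 13 stood at or below the level of the other skin barcodes. Fos was 2.39-fold lower (2.18 to 2.62) at 236, 808 and 240 CPM. The most abundant members, Btg1 (3093 CPM in skin, 2546 in IgG blood), Junb (1036 and 2446) and Dusp1 (1037 and 1995), were not called, and Jund (542 and 1577) was 2.03-fold lower, a call that was lost without the mixed barcodes. Nr4a3 (171 CPM, 1 UMI in IgG blood) and Dusp2 (48.1 CPM, 2.39-fold) were the higher members above the rest of the skin library. Hspa1a, a heat shock gene, stood at 304 CPM in the neutrophils and 1261 in the rest of that library.

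Of 19 myeloid transcription factors 8 were higher and 4 lower (relative median 0.42, −0.10 without the division by the median of all genes), beside 27.7% and 23.7% of all genes. Cebpb, a factor of emergency granulopoiesis and inflammation, stood at 4356, 1618 and 771 CPM (3.86-fold, 3.69 to 4.04), and Bhlhe40 (269, 4.55 and 3.17 CPM) was 84.6-fold higher (38.7 to 231). Litaf was 2.78-fold higher (2.54 to 3.03), Cebpd 3.44-fold lower (3.1 to 3.83), and Spi1, the PU.1 gene, stood at 430 and 991 CPM in skin and IgG blood without a call. Cebpe, which drives specific granule formation, was lower at 6.67, 21.2 and 83.4 CPM but not called without the mixed barcodes, and the early granulocyte factor Gfi1 was not measured. Of 14 cell cycle genes only Tuba1b, Stmn1 and Pcna were measured; all 3 were higher than in IgG blood and below the rest of the skin library. None of the 3 was called against the platelet-free blood barcodes, and Mki67 held 12 UMIs.

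Genes named by rank in the upward direction were, in order of the interval bound nearest to 1, Cxcl3, Cxcl2, Ccl4, Spp1, Ccl3, Hilpda, Il1a, Saa3, Ngp, Acod1, Cd14 and Ccrl2. Acod1, which makes the antimicrobial metabolite itaconate, stood at 2471, 20.5 and 40.0 CPM (173-fold, 119 to 262). The acute phase gene Saa3 stood at 460 CPM in the neutrophils, close to the 400 CPM of the other skin barcodes, with 1 UMI in IgG blood. G0s2, a regulator of lipid breakdown that is also a neutrophil marker, stood at 2245, 180 and 207 CPM.

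Genes ranked in the downward direction were Nrgn, Ctla2a, Gp5, Gng11, Alox12, Tsc22d1, Itga4, Myl9, Parvb, Itga6, Bin1 and Tbc1d10c. Nrgn had 1 UMI in skin and stood at 1436 CPM in IgG blood, but at 221 CPM (35 UMIs) in blood barcodes without platelet UMIs. Ctla2a, a protease inhibitor gene, was 115-fold lower (91.9 to 146) at 22.3 against 3681 CPM. Against the 965 CPM of blood barcodes without platelet UMIs, Ctla2a was 28.3-fold lower (21.3 to 37.7). Several of the ranked genes, such as Gp5, Gng11, Alox12 and Myl9, are known from platelets. Platelet RNA, read as at least 1 UMI of Pf4 or of Ppbp, was found in 84.7% of IgG blood, 89.0% of EBA blood and 3.33% of skin neutrophils. Over the 66 IgG blood neutrophils without such a UMI (158590 UMIs), Gp5 was no longer called, and the ranking held Nrgn, AW112010, Ctla2a, Itga4, Tbc1d10c, Bmx, Ttc7, Atp2a3, Lst1, Tspan2, Ptpn22 and Nlrp12. In these blood cells Lst1, a leukocyte adaptor, held 1866 CPM against 94.8 in skin (12.9-fold lower, 11.0 to 15.1), and Nlrp12, an inhibitory sensor of myeloid cells, 315 against 13.9 (14.8-fold lower, 9.77 to 22.5). Across all genes this smaller set of blood cells gave 1191 higher and 1032 lower genes.

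The share of barcodes in which a gene was seen differed widely between inflammatory genes. After thinning every barcode to 500 UMIs, which left none out, Cxcl2 was detected in 93.9% of skin neutrophils (exact 95% interval 91.9% to 95.6%), 1.39% of IgG blood and 1.15% of EBA blood neutrophils. Cd14 was detected in 87.8% (85.2% to 90.2%), 4.18% and 9.23%, and Acod1 in 68.3% (64.6% to 71.7%), 0.696% and 1.92%. For comparison, 272 barcodes of the same skin library had 1% or more of their UMIs from Krt5 and Krt14. Their shares were 3.31% for Cxcl2 and 0 of 272 for Cd14 and for Acod1 (which allows up to 1.10%). Their median depth before thinning was 34610 UMIs, against 3352 in the skin neutrophils. Free RNA can form a smaller part of deeper barcodes, so these shares cannot give the background of the neutrophils. Whether the keratin-rich barcodes made these transcripts themselves was not tested.

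Other chemokines and cytokines were seen in smaller shares than Cxcl2. Ccl3 was detected in 57.2% of skin neutrophils (53.5% to 61.0%), Ccl4 in 49.3% (45.5% to 53.1%), Cxcl3 in 47.8% (44.0% to 51.6%), Tnf in 17.7% (14.9% to 20.7%) and Il1a in 12.9% (10.5% to 15.6%). In IgG blood none of these 5 passed 1.39%, and in the keratin-rich barcodes the shares were 0.368%, 0.735%, 0.735%, 0 of 272 and 0.368%. Il1b was detected in 73.3% of skin (69.9% to 76.6%), 81.9% of IgG blood (77.9% to 85.4%) and 26% of EBA blood neutrophils, and in 0.735% of the keratin-rich barcodes. Without thinning the Il1b shares were 95.2%, 98.6% and 63.7%.

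Among receptors, Clec4d was detected in 72.0% of skin (68.5% to 75.4%), 31.8% of IgG blood and 12.4% of EBA blood neutrophils, and Clec4e in 63.6% (59.9% to 67.2%), 12.5% and 13.6%. Fcgr3 was detected in 24.2%, 25.8% and 22.3%, with intervals that overlap. Cxcr2 was detected in 17.1% of skin (14.4% to 20.1%) and 59.9% of IgG blood neutrophils. Ngp was detected in 9.86% of skin neutrophils (7.73% to 12.3%), in 0 of 431 in IgG blood (which allows up to 0.696%) and in 54.6% of those of EBA blood. The keratin-rich barcodes gave 0.368% for Clec4d, Clec4e and Fcgr3, 0.735% for Cxcr2 and 0 of 272 for Ngp.

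**Figure D3:**
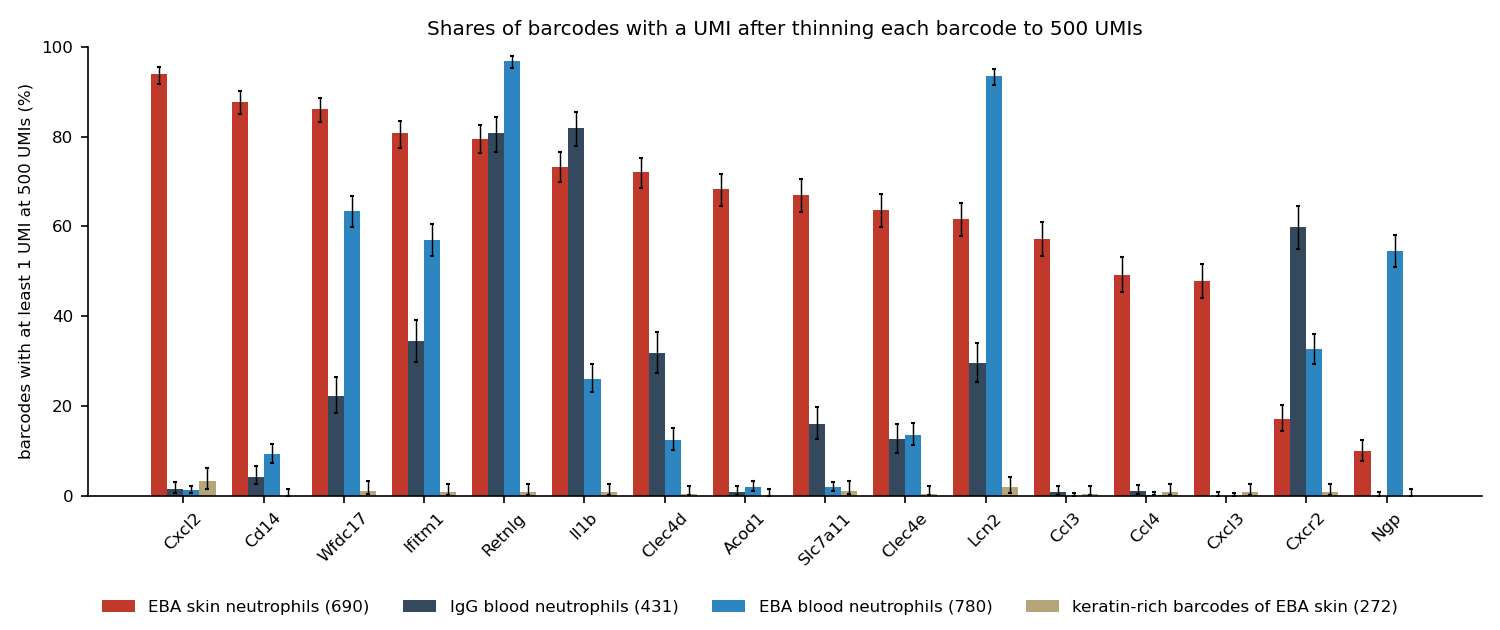
Share of barcodes with at least 1 UMI after thinning to 500 UMIs, for 16 genes in EBA skin, IgG blood and EBA blood neutrophils. Keratin-rich barcodes of EBA skin, which were deeper before thinning, are set beside them. Error bars are exact 95% binomial intervals over barcodes of 1 library; Cxcl2 reaches 93.9% in skin and 1.39% in IgG blood, and Cxcr2 is less frequent in skin (17.1% against 59.9%).

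The spread among skin neutrophils was ranked by variance-to-mean ratio, which grows with a gene's abundance as well as with its spread. S100a8 and S100a9, which stand high in that order, are the rule's own genes. In 658 barcodes thinned to 1000 UMIs the median variance-to-mean ratio over 663 genes was 1.27, where 1 is the value of pure counting. After the haemoglobin genes, led by Hbb-bs at 278 (1.19 without the mixed barcodes), the order was Cxcl2 31.7, Saa3 26.3, Ccl4 21.9, S100a9 20.7, S100a8 19.0 and Spp1 19.0. These values hardly moved without the mixed barcodes (Cxcl2 31.4, Saa3 27.5, Spp1 19.0). Cxcl2 ranged from 3 UMIs per 1000 at the 10th percentile over a median of 18 to 69.3 at the 90th and 195 at most. Saa3 had a median of 0 and a maximum of 67, so its RNA was carried by a minority of barcodes.

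Clustering on one random part of each barcode's UMIs, with levels read from the remaining UMIs, gave 4 sub-clusters of 295, 294, 89 and 12 barcodes. Sub-cluster 1 was higher in Camp (235 CPM inside, 4.29 outside), Ngp (1252 and 94.3), Retnlg (14457 and 5131), Ly6g (240 and 81.4) and Mmp8 (710 and 295). Sub-cluster 2 was higher in Tnf (1105 and 263 CPM), Il1a (695 and 185), Ccl4 (8999 and 2704), Ccl3 (6600 and 2362), Saa3 (965 and 224) and Csf1 (344 and 110). Sub-cluster 3 was led by keratinocyte genes such as Krt10 (10576 and 424) and Cst6, and 13 of its barcodes were mixed. Sub-cluster 4 was led by fibroblast genes, with fibroblast markers at 55222 CPM, a median of 21853 UMIs and 12 of 12 barcodes mixed. The borders were unstable: the adjusted Rand index was 0.138 when the other part of the UMIs was clustered, 0.415 with another random seed and 0.142 without the mixed barcodes. These clusters describe a range and are not cell types.

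**Figure D4:**
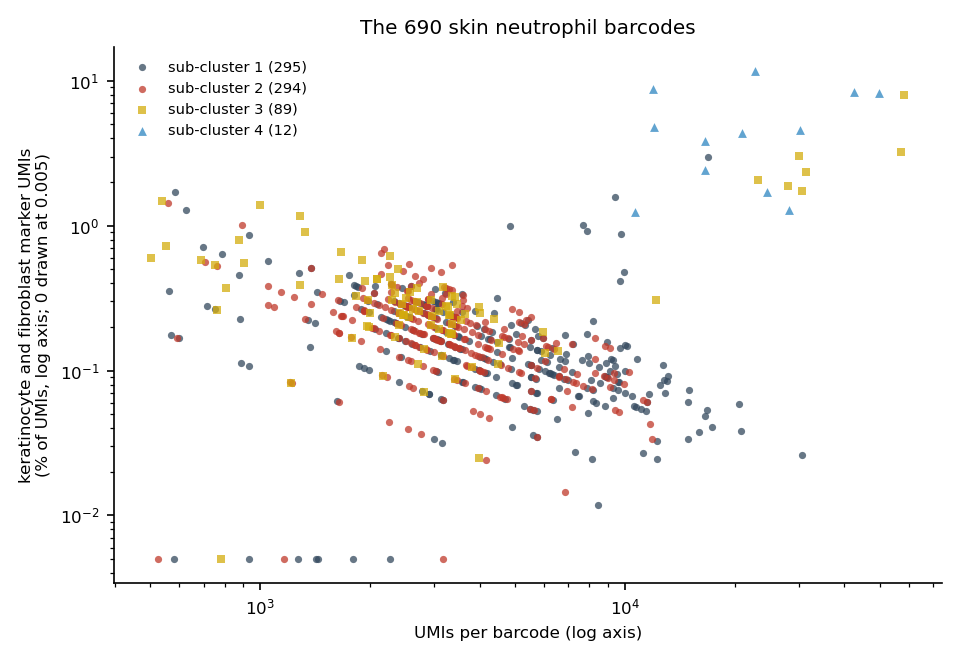
UMIs per barcode against the percentage of UMIs from keratinocyte and fibroblast markers (both log axes, 0 drawn at 0.005) for the 690 skin neutrophil barcodes, by sub-cluster. All 12 barcodes of sub-cluster 4 and several of sub-cluster 3 lie at high depth with over 1% of such UMIs, while sub-clusters 1 and 2 overlap.

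The 2 larger sub-clusters were followed as a gradient, an ordering chosen after their genes were seen. The 650 unmixed barcodes were put in 4 groups of 162 or 163 by their Retnlg share in one part of the UMIs, and levels were read from the remaining part. Retnlg encodes a resistin-like peptide of maturing neutrophils. From the lowest to the highest group, Retnlg itself ran from 1416 to 23009 CPM and the median depth from 2714 to 4077 UMIs. Of the 650 barcodes 129 lay within 10% of a border between groups, so the groups are stretches of 1 range.

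Genes of marrow maturation followed Retnlg in the summed counts. Ngp stood at 30.2, 125, 594 and 1867 CPM in groups 1 to 4, 61.8-fold higher in group 4 than in group 1 (31.2 to 144). Camp stood at 3.78, 0, 72.6 and 379 CPM, the neutrophil surface gene Ly6g at 56.7, 91.9, 192 and 312 and Mmp8 at 238, 291, 617 and 952. Summed over the list, specific granule genes were 2.49-fold higher in group 4 (2.33 to 2.66). The rule's own genes S100a8 and S100a9 were 1.96-fold and 1.92-fold higher there, so their share moved with the ordering. With all 690 barcodes in the ordering these ratios were 3.08 and 3.07, and those of Mmp8, Ly6g and Ngp were 6.68, 8.85 and 92.0 in place of 4.00, 5.51 and 61.8.

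Several inflammatory genes ran the other way in the summed counts. Tnf stood at 1084, 715, 635 and 248 CPM, 4.38-fold higher in group 1 than in group 4 (3.49 to 5.53). Il1a was 3.31-fold (2.52 to 4.37), Csf1 3.05-fold (2.14 to 4.38), Icam1 2.47-fold (1.78 to 3.44), Ccl3 2.39-fold (2.22 to 2.57) and Clec4e 1.95-fold higher in group 1 (1.78 to 2.14). Saa3 stood at 1420, 391, 106 and 167 CPM. For Tnf, Il1a, Csf1, Icam1 and Saa3 the median barcode of every group had 0 held-out UMIs, so a minority of barcodes carried these sums. Over single barcodes the Spearman rank correlation with the Retnlg share was weak, at −0.192 for Tnf, −0.0586 for Il1a, −0.153 for Csf1 and −0.249 for Clec4e. Between the outer groups, Cd14, Hilpda and Fc and complement receptors as a list had ratios of group 4 over group 1 of 0.987 (0.927 to 1.05), 1.00 (0.860 to 1.18) and 0.988 (0.921 to 1.06), although Hilpda stood lower in group 2 (729 CPM against 1005 in group 1). Cxcl2 was abundant in every group, at 35531, 32126, 30178 and 24961 CPM. Leaving out the mixed barcodes, 23 of which fell in the lowest group, decided several of these values. With all 690 barcodes in the ordering Tnf was 2.43-fold (1.95 to 3.04), Il1a 1.91-fold (1.46 to 2.51), Csf1 2.04-fold (1.47 to 2.87), Ccl3 1.38-fold (1.28 to 1.49) and Clec4e 1.10-fold higher in group 1 (1.00 to 1.2). Ccl4 stood at 3883 CPM in group 1 and 4022 in group 4, a ratio whose interval held 1 (0.970 to 1.11), and Cxcl2 at 21062 and 24562, so Cxcl2 turned direction. Cd14, Hilpda and the Fc and complement list were then 1.67-fold, 1.74-fold and 1.61-fold higher in group 4.

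**Figure D5:**
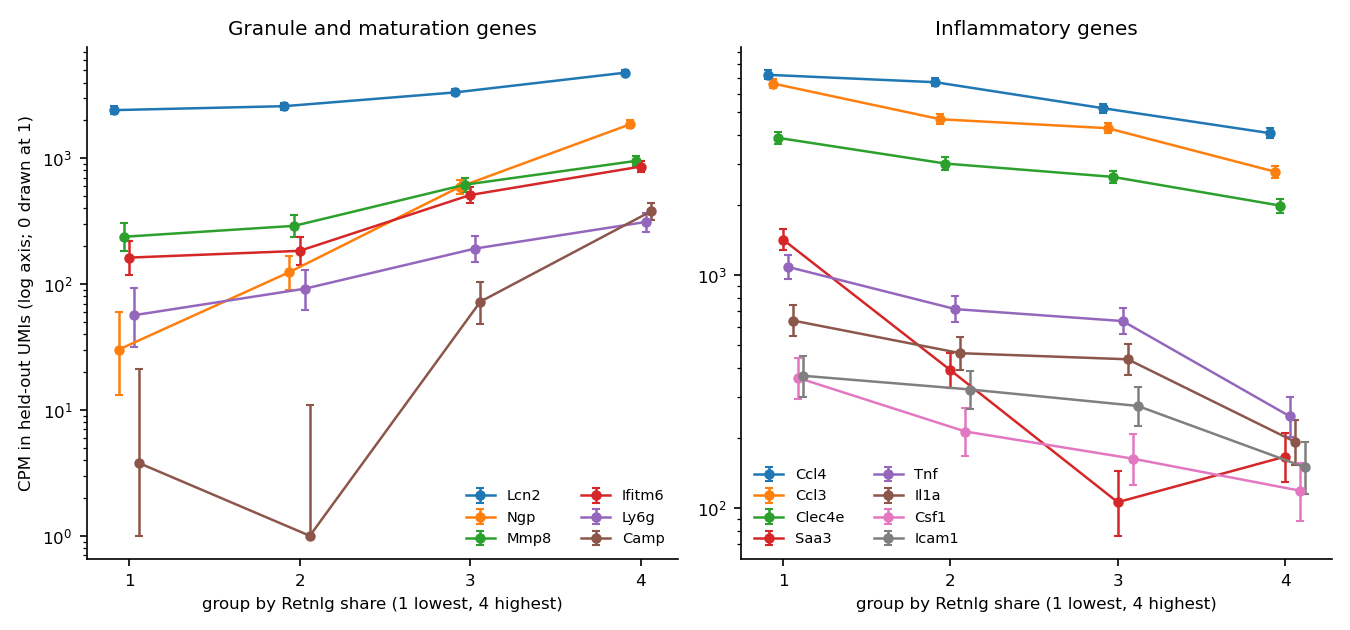
CPM in held-out UMIs (log axes, 0 drawn at 1) of granule and maturation genes (left) and inflammatory genes (right) in 4 groups of unmixed skin neutrophils ordered by their Retnlg share. Error bars are exact 95% Poisson intervals of the counts; Ngp runs from 30.2 to 1867 CPM and Tnf from 1084 to 248.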

How the data were processed

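Single cells were measured by droplet 3′ sequencing in 4 libraries of blood and ear skin, each from pooled cells of 3 mice. The deposited values are UMI counts per gene and barcode for 31053 genes, made by the authors with Cell Ranger 3.0.0, per the submitters' processing notes, which also name Seurat 3.0.0 and 3.1.0 and the mm10 genome. They are not normalized. Their filtered barcodes and raw counts were used here as deposited, and doublets were not removed, except in an alternative that left out the highest Scrublet scores.

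Neutrophil barcodes were found with the rule given above and their counts summed by library. CPM, ratios of sums and exact conditional 95% intervals were computed in Python 3.11.15 with numpy 2.4.6, scipy 1.17.1 and pandas 2.3.3. Zero counts were set to a floor of 3 counts over the sum. Each group is 1 library, so no p-value was computed. Intervals cover counting error only. Shares of barcodes with a UMI were computed after thinning to 500 UMIs, with exact Clopper-Pearson intervals. Sub-clusters were made with scanpy 1.11.5 (Leiden, resolution 0.5, 1000 variable genes, 15 components) on a random part of the UMIs and read in the remaining part. On data simulated with counting error only (6514 genes, 200 changed 4-fold), the calling rule recovered 100% of the changed genes in each direction. It called 1.17% of the unchanged genes, and 95.2% of their intervals held 1. Both simulated sums came from a shared profile under the counting model of the intervals, so this checks the calculation only. The simulation held no free RNA, mixed or platelet-bearing barcodes or spread between cells, and gives no error rate for the real comparison.

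The members, the 22 gene lists and the 12 marker lists were chosen with earlier results of these data known. Genes were named by rank (12 per direction by the interval bound nearest to 1 at 100 CPM or more, leaving out marker genes of other classes, rule genes, gene models and genes under 0.5 times their CPM in the other barcodes), by abundance (4 per list) and, for Fc and complement receptors, C-type lectins and lipid mediators, in full; further list members were named for their role after their values were seen. Promoter sequences come from RefSeq (GRCm38.p6). The alternatives concerned the cell filters, doublets, shared barcodes, scaling, free RNA, platelet-bearing barcodes, low counts, clustering and thinning. Some members that the naming rule would give are not reported here.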

Additional observations from a re-analysis of the deposited data

How the results depend on the processing

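No paired analysis was possible because each group was 1 pooled library, and for the same reason no replicate could be left out. Of the counts over all genes, leaving out blood barcodes with platelet UMIs gave 1191 higher and 1032 lower genes over 66 blood barcodes, and CPM ratios without centring gave 1418 higher and 2622 lower. The remaining settings kept both counts within 1.5 times of 1985 and 1704, among them the mitochondrial limit of 5% (1951 and 1699), 2% of S100a8 and S100a9 in skin (1817 and 1586), the doublet scores (1836 and 1612), the subtraction of free RNA (1684 and 1585, after 19.4% of skin and 6.96% of blood UMIs were removed) and the barcodes with RNA of other cells left out (1703 and 1545). The skin figure of 19.4% also counts the RNA of mixed barcodes. Clustering at resolution 0.8 gave 9 sub-clusters instead of 4. Across the alternative settings, 1651 values of genes, lists and shares stayed within the main interval, 999 lay outside it and 6 reversed. The intervals therefore do not cover the choice of processing. Of 222 named genes, 4 turned direction under a setting in which they were measured. On the relative log2 scale, leaving out the highest doublet scores put Cd74 at 1.74, H2-Ab1 at 2.01 and H2-Eb1 at 3.12. H2-Eb1 was at 0.070 by the mean over barcodes and at 0.15 without platelet-bearing blood barcodes, where Mrc1 was at −0.24. The cause was not tested. The settings that leave out mixed barcodes, rank lower genes without platelet-bearing barcodes, order barcodes by Retnlg or use keratin-rich barcodes at 1% were chosen after seeing the data. With 3 UMIs over both sums and no limit on CPM, 13066 genes were compared, with 2686 higher and 2289 lower.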
